A study of Mus musculus with 13 samples.

Results

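The mouse microRNAs mmu-miR-26a-5p, mmu-miR-26b-5p, mmu-miR-101a-3p and mmu-miR-101b-3p, written without the species prefix from here on, are known to repress Ezh2. These 4 were taken by their array names from the 1122 mouse miRNA names on the array, and all 4 were among the 229 that were above background on every array of at least 1 primary group and so were tested. miR-101a-3p entered the test only through DN thymocytes, where it was above background on all 3 arrays.

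Mature miRNA was measured on 13 one-colour Agilent arrays, all of C57BL/6 material. Sorted thymus gave 2 normal groups, DN (lacking CD4 and CD8) and DP (carrying both). The leukaemia groups are T-cell acute lymphoblastic leukaemia (T-ALL) at an early stage (ES) or a late stage (LS), sorted for CD4 and CD8 from spleens of chimeric mice with N1ICD-transformed marrow (N1ICD is the cleaved, active form of Notch1). Each of these 4 groups has 3 arrays, described in the series as biological replicates. M295 is a cultured mouse T-ALL line with 1 array. How N1ICD was delivered, the ages of the mice and the cells the chimeric hosts retained are not given in the sources used here. Since leukaemias were taken from spleen and normal cells from thymus, disease and tissue cannot be told apart. In a sorted population, fewer cells that make a miRNA and less of it per cell cannot be told apart either.

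Ezh2 is the histone methyltransferase of a Polycomb repressive complex, which silences genes by methylating histone H3. A miRNA guides the Argonaute silencing complex to sites in a messenger RNA that pair with its seed, the bases near its 5′ end, and the message is then degraded or translated less. miR-101 and miR-26a were found to target Ezh2 in human and mouse cells, miR-26a is among the miRNAs that the transcription factor Myc holds down in lymphoma, and Myc is itself a direct target of Notch1 in T-ALL. In T-ALL the Polycomb complex is known to oppose the Notch1 programme. Ezh2 itself was not measured here, since the arrays hold only miRNA probes.

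The mature sequences show which members share a seed and how little separates the members of each pair, which also bears on how well probes can separate them. They are RefSeq's, on build GRCm38.p6, and bases 2 to 8 (the seed) are in capitals.
miR-26a-5p: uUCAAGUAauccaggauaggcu
miR-26b-5p: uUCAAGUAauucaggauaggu
miR-101a-3p: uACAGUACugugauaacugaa
miR-101b-3p: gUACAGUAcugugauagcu

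The miR-26 members carry the same seed and differ over the first 21 bases at 2 positions, C11U and C21U, counted from the 5′ end of miR-26a-5p with its base first. miR-101b-3p begins 1 base earlier than miR-101a-3p, so their seeds are offset by 1 base. Aligned over 18 shared bases they differ only at A16G, counted from the 5′ end of miR-101a-3p. miR-26a-5p is encoded at chr9:119031811-119031832 (plus strand, within Ctdspl) and again at chr10:126995543-126995564 (plus strand, within Ctdsp2). miR-26b-5p lies at chr1:74394324-74394344 (plus strand, within Ctdsp1). The host genes encode small phosphatases of the RNA polymerase tail. miR-101a-3p lies at chr4:101346957-101346977 (minus strand, within the span of E130102H24Rik) and miR-101b-3p at chr19:29135338-29135356 (plus strand, within Rcl1).

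Against DP thymocytes the pairs went opposite ways in the leukaemias. Both miR-26 members were lower and both miR-101 members higher in ES and in LS, and the 3 arrays of each leukaemia stage did not overlap the 3 DP arrays for any of the 4. The same held for 58.1% of all tested miRNAs in ES and 78.2% in LS. miR-101a-3p was not above background on any DP array, nor on ES 1 or LS 1. Its separation from DP therefore rests in part on undetected signal. DN thymocytes lay on the same side of DP as the leukaemias for all 4 members. Against DN, 0 of the 4 members were called by limma in ES and 0 in LS, and 0 had an unadjusted p under 0.05 in either. Of all tested miRNAs 6.55% and 33.2% were called there. miR-101a-3p is counted among the 4, although DN alone admitted it. Both T-ALL comparisons with DP use the same 3 DP arrays, so they are not independent of each other.

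Levels are log2 intensities after each array was divided by the 75th percentile of the 108 miRNAs above background on all 12 primary arrays, with a common floor at -7.59. Called below means a limma p under 0.05 after Benjamini-Hochberg adjustment. Fold changes are given with the standard error of the fit, and group means with the SD of 3 arrays.

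miR-26a-5p was at -0.96, -0.74 and -0.83 on DN 1 to 3, and at 0.49, 0.61 and 0.51 on DP 1 to 3. It was at -3.53, -2.14 and -0.52 on ES 1 to 3, and at -1.84, -1.50 and -1.32 on LS 1 to 3. All 6 leukaemia arrays were below all 3 DP arrays, all LS arrays were below all DN arrays, and ES 3 alone among the leukaemias was above DN. The SD was 1.51 in ES, against 0.11 in DN, 0.07 in DP and 0.26 in LS.

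**Figure D1:**
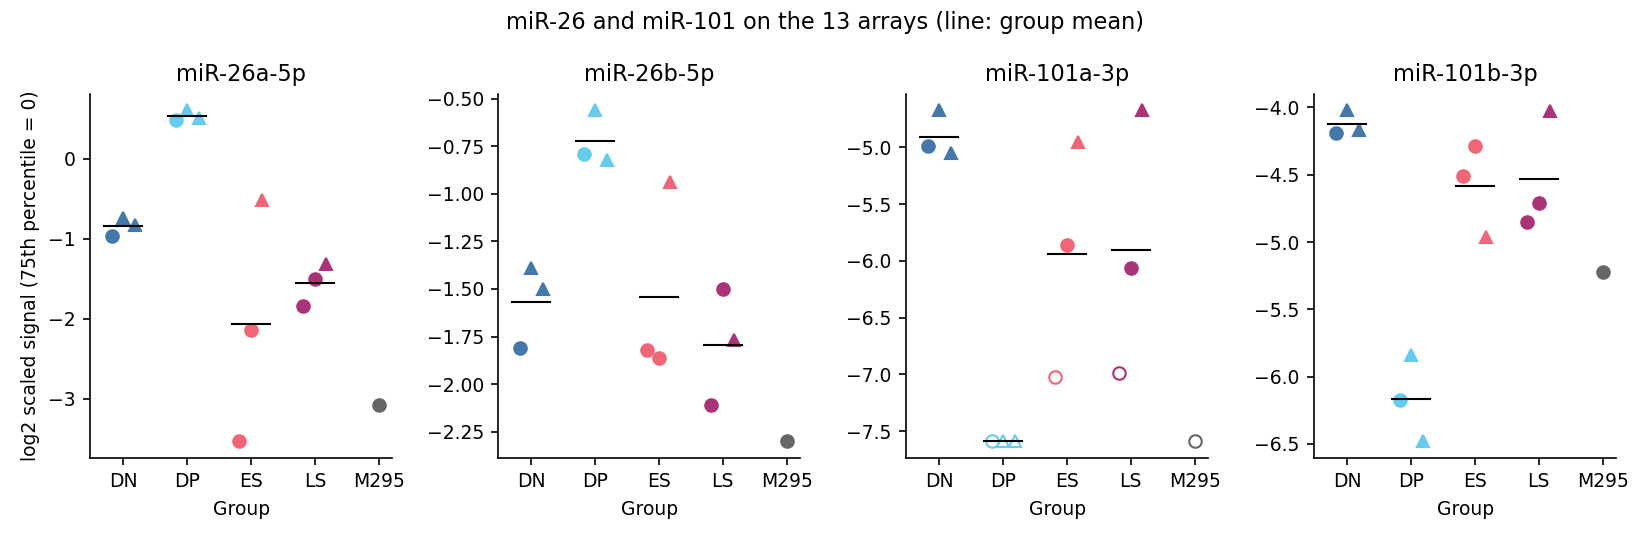
Log2 scaled signal of each member (y axis, each panel with its own range) on the 13 arrays by group (x axis). Circles are arrays of slide 1 and triangles of slide 2, open symbols were not above background, and lines are means of 3 arrays. DP stands highest for both miR-26 members and lowest for both miR-101 members.

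miR-26a-5p fell 6.05-fold in ES against DP (log2 change -2.60, SE 0.57, limma adjusted p = 0.00482). In LS it fell 4.25-fold (-2.09, SE 0.57, adjusted p = 0.0109). Both calls held without any 1 of the 12 arrays, but the LS call ended without the filter on dim miRNAs (adjusted p = 0.0896). The ES value ranged from -3.37 without ES 3 to -1.86 without ES 1. On slide 1 alone, with ES 1, ES 2, LS 1, LS 2 and DP 1 as the only DP array, the ES value was -3.32 and the LS value -2.15. On slide 2 alone, with ES 3 and LS 3 as the only leukaemia arrays, they were -1.08 and -1.88.

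miR-26b-5p was at -1.81, -1.39 and -1.50 on DN 1 to 3, and at -0.79, -0.56 and -0.82 on DP 1 to 3. It was at -1.82, -1.86 and -0.94 on ES 1 to 3, and at -2.11, -1.50 and -1.77 on LS 1 to 3. ES 1, ES 2 and LS 1 were below the DN range, LS 2 and LS 3 within it, and ES 3 above it, the T-ALL array nearest to DP for this member too. The fall against DP was 1.77-fold in ES (log2 change -0.82, SE 0.27, adjusted p = 0.0318) and 2.10-fold in LS (-1.07, SE 0.27, adjusted p = 0.00786). The LS call held without any 1 array. Leaving out any DP array, ES 1 or ES 2 ended the ES call (adjusted p up to 0.0997), as did scaling over all mouse miRNAs (-0.28, 0.414) and testing without the filter (0.144). On slide 1 alone, with DP 1 as the only DP array, the ES value was -1.05 and the LS value -1.01. On slide 2 alone, with ES 3 and LS 3 as the only leukaemia arrays, they were -0.26 and -1.09.

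ES 3 differed from the other leukaemias in another respect. Its summed level of the myeloid markers miR-223-3p and miR-223-5p was 7.23 times the array's scaling value, against 0.00737 to 0.0164 on the other ES arrays, 0.00968 to 0.0107 in LS, 0.0251 to 0.0337 in DN and 0.00630 to 0.00901 in DP. On ES 3, 1 of these 2 markers was above background. ES 3 was also the highest leukaemia array for miR-26a-5p and miR-26b-5p. Without it miR-26a-5p was called as lower in ES than in DN (-1.99, adjusted p = 0.00792) against -1.22 with it (0.204). The 2 markers of mature lymphocytes, miR-150-5p and miR-155-5p, summed to 0.473 on ES 3 against 0.116 and 0.00864 on ES 1 and ES 2, 0.0196 to 0.119 in LS, 0.156 to 0.187 in DN and 0.266 to 0.292 in DP, and miR-155-5p fell in LS against DP (-3.07, adjusted p = 0.0328). Of 5 epithelial markers, 2 were above background on each of ES 2, ES 3, LS 2 and LS 3 and 0 on ES 1, LS 1 and the thymocyte arrays. M295, a cultured T-ALL line, also had 2 above background, so these markers were not limited to the primary leukaemias. The part of any other cells in the miR-26 and miR-101 levels was not tested otherwise.

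miR-101a-3p was dim. It was at -4.99, -4.67 and -5.05 on DN 1 to 3 and at the floor of -7.59 on all 3 DP arrays, where it was not above background. It was at -7.02, -5.86 and -4.95 on ES 1 to 3, and at -6.99, -6.06 and -4.67 on LS 1 to 3, not above background on ES 1 and LS 1. In each leukaemia group, 1 array was near the DP floor and 1, the array of slide 2, was at the DN level.

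Because DP was below background, and 1 array of each leukaemia stage too, no fold is given for the stages. The fitted log2 change against DP at the floor was 1.65 in ES (SE 0.58, adjusted p = 0.0399) and 1.68 in LS (SE 0.58, adjusted p = 0.0295). The ES call ended without any 1 of 9 arrays (DN 1, DN 2, DN 3, DP 1, DP 2, DP 3, ES 2, ES 3 and LS 2; adjusted p up to 0.119), with a value of 1.15 without ES 3. Leaving out any DP array, LS 2 or LS 3 ended the LS call (adjusted p up to 0.0960), with a value of 1.07 without LS 3. After normexp background correction neither stage was called (0.50, adjusted p = 0.0639, and 0.31, 0.202), nor without the filter (adjusted p = 0.258 and 0.194). In the authors' deposited table the values were 1.15 in ES and 1.06 in LS, both called (limma adjusted p = 0.0115 and 0.0129). Of the 22 other settings, 10 called miR-101a-3p in ES and 14 in LS. On slide 1 alone, with DP 1 as the only DP array, the ES value was 1.15 and the LS value 1.07. On slide 2 alone, with ES 3 and LS 3 as the only leukaemia arrays, they were 2.64 and 2.92.

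miR-101b-3p was above background on all 13 arrays. It was at -4.19, -4.02 and -4.17 on DN 1 to 3, and at -6.17, -5.84 and -6.48 on DP 1 to 3. It was at -4.51, -4.29 and -4.96 on ES 1 to 3, and at -4.85, -4.71 and -4.03 on LS 1 to 3. Every leukaemia array was above every DP array, and LS 3 lay within the DN values.

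miR-101b-3p rose 2.98-fold in ES against DP (log2 change 1.57, SE 0.27, adjusted p = 0.00105) and 3.1-fold in LS (1.63, SE 0.27, adjusted p = 7.81e-04). It was called in both stages in each of the 22 other settings tried. These include the fits within slide 1, with DP 1 as the only DP array (1.77 in ES and 1.39 in LS). They also include those within slide 2, with ES 3 and LS 3 as the only leukaemia arrays (1.2 and 2.13). Its smallest values came from normexp background correction, 0.70 in ES and 0.64 in LS.

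All 4 members were called in ES against DP, where 46.3% of the 229 tested miRNAs were called, 21% as higher and 25.3% as lower. All 4 were also called in LS against DP, where 58.5% were called, 32.3% as higher and 26.2% as lower. Groups that do not overlap were common as well, at 58.1% of tested miRNAs in ES and 78.2% in LS. By size, miR-26a-5p had the 20th largest of 229 changes in ES and the 55th in LS, while miR-101b-3p stood at ranks 62 and 81, miR-101a-3p at 58 and 77, and miR-26b-5p at ranks 125 and 109.

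**Figure D2:**
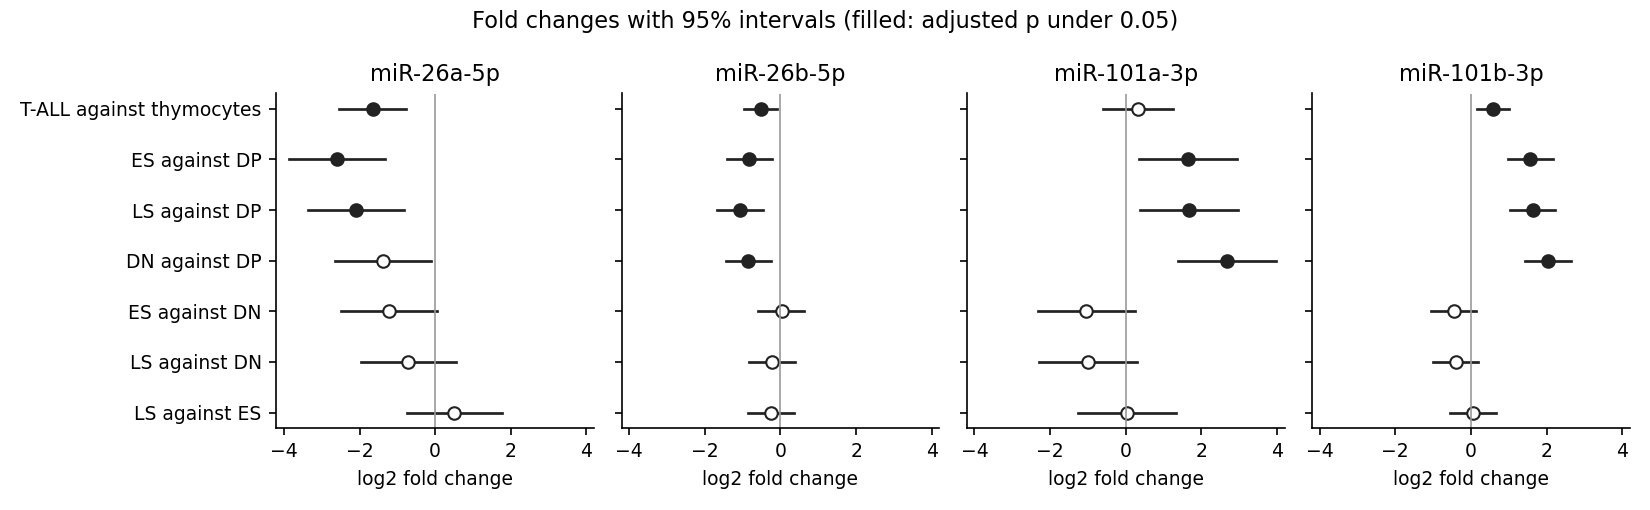
Fold change on the log2 scale (x axis) with its 95% interval for each member in 7 comparisons (rows), from the limma fit of the 12 primary arrays. Filled points had an adjusted p under 0.05. The values against DP lie on opposite sides of 0 for the 2 pairs, and the intervals against DN and between stages, all with open points, include 0.

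The normal stages themselves differed. In DN against DP, miR-101b-3p rose 4.10-fold (log2 change 2.04, SE 0.27, adjusted p = 3.43e-04), with 0.97 after normexp. miR-101a-3p was at least 6.08-fold higher, set against the higher of each DP array's own value and its lowest signal above background. This is given with no test, since its DN level is what admitted it, and after normexp its log2 change was 0.79 where the fit gave 2.69. miR-26b-5p fell 1.80-fold (-0.85, SE 0.27, adjusted p = 0.0385), a call that ended without any DN or DP array or LS 3 (adjusted p up to 0.140) and without the filter (0.168). miR-26a-5p was 2.60-fold lower in DN without being called (-1.38, SE 0.57, adjusted p = 0.0996), although its DN and DP arrays did not overlap. That value was called without ES 1 (adjusted p = 0.0154) or ES 3 (0.00491). In this comparison 29.3% of tested miRNAs were called, 10.5% as higher and 18.8% as lower, and 76% did not overlap.

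Markers of red blood cells, which carry miR-451 and miR-144, moved with miR-101 among the thymocytes. The summed level of the 3 on the array was 0.754 to 1.02 in DN and 0.0115 to 0.0224 in DP, with 2 of 3 above background on each DN array and 0 or 1 on each DP array. In the leukaemias it was 0.23, 0.0158 and 0.389 on ES 1 to 3 and 0.303, 1.61 and 0.0896 on LS 1 to 3. Of the 6 endothelial and stromal markers, 1 was above background on each DN array and 0 on the DP, ES and LS arrays. The part of such cells in the miR-101 levels was not tested.

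Against DN, the leukaemias differed by less than the fit, which pools the spread of the 4 groups, could resolve. miR-26a-5p was at -1.22 in ES (95% interval -2.48 to 0.04, adjusted p = 0.204) and at -0.71 in LS (-1.97 to 0.55, adjusted p = 0.391). miR-26b-5p was at 0.03 in ES (-0.58 to 0.63, adjusted p = 0.992) and at -0.23 in LS (-0.83 to 0.38, adjusted p = 0.582). These intervals do not show that the groups were alike. For miR-26a-5p the pooled spread includes ES, with an SD of 1.51, against 0.26 in LS and 0.11 in DN. Scaled over all mouse miRNAs, miR-26a-5p was called as lower in LS than in DN (-1.21, limma adjusted p = 0.0264).

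miR-101a-3p was at -1.04 in ES against DN (95% interval -2.33 to 0.25) and at -1.0 in LS (-2.30 to 0.29). The LS value without LS 3 was -1.62. These are given with no test, since the DN level of miR-101a-3p is what admitted it. miR-101b-3p was at -0.46 in ES (-1.06 to 0.14, adjusted p = 0.265) and at -0.40 in LS (-1.0 to 0.20, adjusted p = 0.302). Of all tested miRNAs, 6.55% were called in ES against DN (3.93% as higher, 2.62% as lower) and 33.2% in LS against DN (25.8% as higher, 7.42% as lower). In each of these comparisons 1 member had groups that did not overlap, miR-101b-3p lower in ES and miR-26a-5p lower in LS, against 36.2% and 57.6% of tested miRNAs.

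Between late and early stage 0 of the 4 members were called by limma and 0 had an unadjusted p under 0.05. In that comparison 2.62% of tested miRNAs were called, 2.18% as higher and 0.437% as lower in LS, and 11.4% did not overlap, against 0 of the members. The LS minus ES difference was 0.51 for miR-26a-5p (95% interval -0.75 to 1.77), -0.25 for miR-26b-5p (-0.86 to 0.35), 0.04 for miR-101a-3p (-1.26 to 1.33) and 0.06 for miR-101b-3p (-0.54 to 0.66). Without ES 3 miR-26a-5p was called as higher in LS (1.28, adjusted p = 0.0268). Within slide 2, with ES 3 and LS 3 as the only leukaemia arrays, it was at -0.80. Without ES 1 it was at -0.22 (adjusted p = 0.794). The direction between the stages therefore rested on which ES array was used.

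In T-ALL as a whole against DN and DP together, miR-26a-5p fell 3.14-fold (log2 change -1.65, SE 0.40, adjusted p = 0.00612) and miR-26b-5p 1.44-fold (-0.52, SE 0.19, adjusted p = 0.0378). miR-101b-3p rose 1.5-fold (0.59, SE 0.19, adjusted p = 0.0246), and miR-101a-3p was at 0.32 (SE 0.41, adjusted p = 0.524). Of all tested miRNAs 57.2% were called here, 31.4% as higher and 25.8% as lower, and 19.7% did not overlap. The DN and DP arrays averaged here did not overlap for any of the 4 members, against 76% of tested miRNAs. For miR-101a-3p this followed from its DN level, which admitted it, with DP at the floor. T-ALL and thymocytes overlapped for all 4. Without the filter 0 of these calls held (adjusted p = 0.0551 for miR-26a-5p, 0.165 for miR-26b-5p and 0.112 for miR-101b-3p). The miR-101b-3p call also ended after normexp (0.18, adjusted p = 0.294), quantile normalization (0.32, 0.369), scaling over all mouse miRNAs (0.60, 0.140) and in the authors' deposited table (0.17, 0.539). With slide as a block the call of miR-26b-5p ended (-0.41, adjusted p = 0.0863). It also ended without any 1 of 9 arrays (DN 2, DN 3, all 3 DP, ES 1, ES 2, LS 1 and LS 3; up to 0.0878), and that of miR-101b-3p without DN 1, DN 3, DP 3 or ES 2 (up to 0.0593).

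For the pooled comparison, the values within slide 1 were -2.01 for miR-26a-5p (adjusted p = 0.0974), -0.52 for miR-26b-5p (0.192), -0.19 for miR-101a-3p (0.819) and 0.59 for miR-101b-3p (0.0706). Within slide 2 they were -0.81 (0.00387), -0.29 (0.110), 1.42 (0.00195) and 0.63 (0.0547) in the same order. The slide 2 fit has 1 array in each leukaemia group, so these are assumed to vary like the thymocytes.

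**Figure D3:**
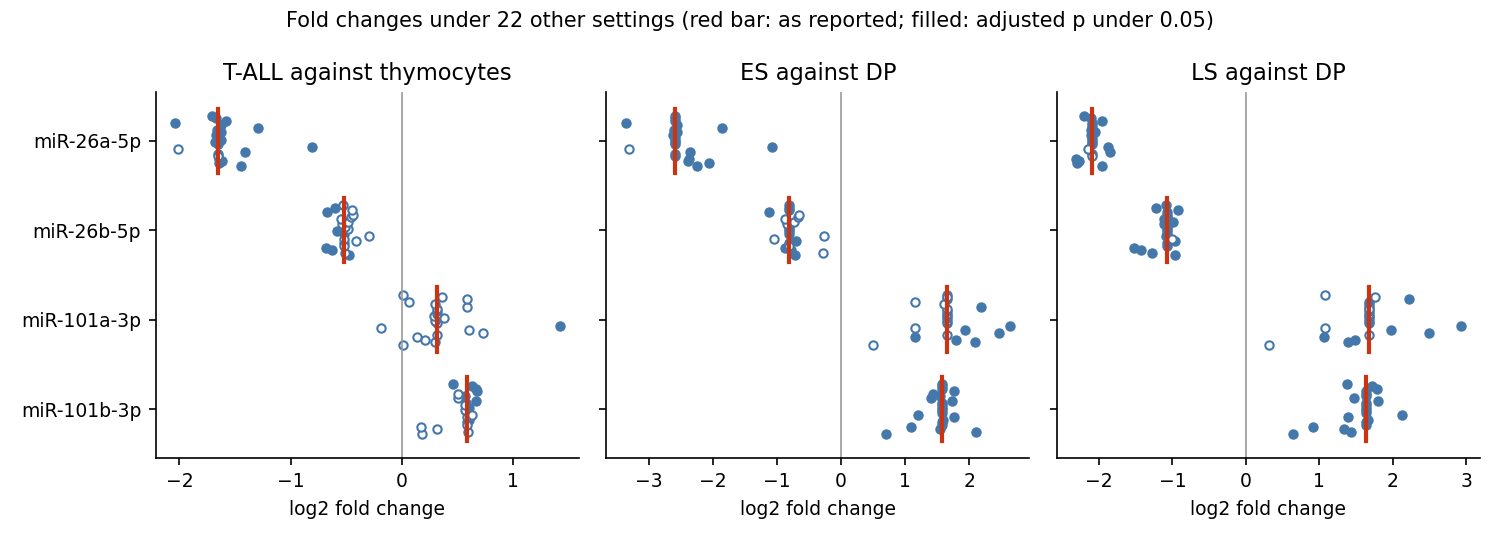
Fold changes on the log2 scale (x axis) of the 4 members (rows) in 3 comparisons under 22 other settings, each a point, filled where the adjusted p was under 0.05. Red bars are the values as reported. Every point against DP kept its direction, and miR-101a-3p in the pooled comparison crosses 0.

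The members of a pair were set against each other within an array, where the scaling of arrays cancels. Because probes bind with different strength, only the change of this difference between groups is read. The log2 difference miR-26a-5p minus miR-26b-5p was 0.85, 0.65 and 0.67 on DN 1 to 3 and 1.27, 1.17 and 1.33 on DP 1 to 3. It was -1.72, -0.27 and 0.42 on ES 1 to 3 and 0.27, 0.00 and 0.45 on LS 1 to 3, so each leukaemia array was below each thymocyte array.

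This difference was 1.13 lower in T-ALL (mean change -1.13, 6 against 6 arrays, exact permutation test, two-sided, p = 0.00216, the smallest that 924 permutations allow, adjusted p = 0.00649 over 3 such tests). On these arrays miR-26a-5p thus fell by more than miR-26b-5p. The test was chosen with earlier results of these data known. It also exchanges DN and DP arrays freely, although every DN array was below every DP array in this difference. The change was -1.49 within slide 1 and -0.51 within slide 2, where the few arrays cannot pass the threshold (adjusted p = 0.200 for each), and it ranged from -1.25 to -0.81 when each array was left out, with -0.81 without ES 1. The difference miR-101a-3p minus miR-101b-3p changed by -0.26 (exact permutation p = 0.539, adjusted p = 0.539), with miR-101a-3p at the floor in DP.

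**Figure D4:**
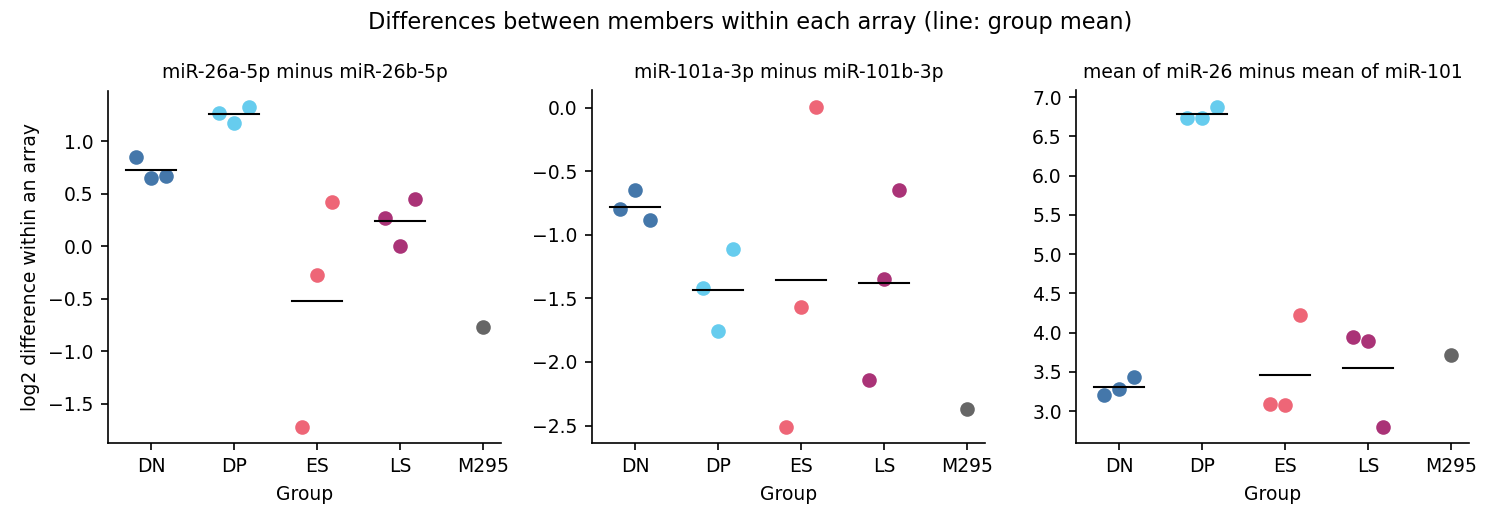
Log2 difference between members within each array (y axis) by group (x axis), with a point per array and a line at the mean of 3 arrays. miR-26a-5p minus miR-26b-5p is lower on each leukaemia array than on each thymocyte array, and the mean of miR-26 minus the mean of miR-101 sets DP apart from the other groups.

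The mean of the miR-26 members minus the mean of the miR-101 members is given as a description, since it was chosen with the opposite movements known. miR-101a-3p stood at the floor on all DP arrays, so the DP value depends on the floor. The difference was 6.78 in DP (3 arrays), 3.31 ± 0.12 in DN, 3.46 ± 0.66 in ES and 3.54 ± 0.64 in LS (SD, 3 arrays each). DP ranged from 6.73 to 6.88 and the other 9 arrays from 2.80 to 4.22. Against both thymocyte groups together the T-ALL mean differed by -1.54, which did not pass the exact permutation test (p = 0.130, adjusted p = 0.195).

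M295, the cultured line, has 1 array and no test. miR-26a-5p was at -3.08 there, within the range of the 6 primary leukaemias (-3.53 to -0.52) and below every thymocyte array. miR-26b-5p was at -2.30, which is 0.20 below the lowest leukaemia array, and miR-101b-3p at -5.22, 0.26 below the lowest. miR-101a-3p was not above background in M295. The mean of miR-26 minus the mean of miR-101 was 3.72 with miR-101a-3p at the floor, inside the leukaemia range.

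Each member was read by 2 probes with 14 to 20 spots kept per probe and array, and the probes of a member gave similar changes. The miR-101 probes were not equally bright. Those of miR-101b-3p were above background on 5 and 12 of the 12 primary arrays, and those of miR-101a-3p on 4 and 7. The dimmer miR-101b-3p probe averaged -7.20 in DP, near the floor of -7.59. In ES against DP the probes of miR-26a-5p gave -2.65 and -2.57, those of miR-26b-5p -0.84 and -0.81, those of miR-101a-3p 1.46 and 1.81, and those of miR-101b-3p 1.63 and 1.55. In LS against DP the probes of a member differed by at most the 1.48 and 1.85 of miR-101a-3p.

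Other names from the same precursors or with a related seed gave little further signal. The 5 passenger arms on the array (miR-26a-1-3p, miR-26a-2-3p, miR-26b-3p, miR-101a-5p and miR-101b-5p) were above background on 0 of the 12 primary arrays. miR-101c, whose 19-base sequence lies wholly inside that of miR-101a-3p, was above background on 4 arrays, 2 of DN, 1 of ES and 1 of LS, and was not tested. On those arrays miR-101a-3p was at -4.67 to -5.05, and how far their probes share signal was not tested. miR-144-3p, a red blood cell miRNA, shares bases 2 to 7 with miR-101a-3p. It was above background on 3 DN, 0 DP, 1 ES and 1 LS arrays, so its DN level is what admitted it. Its DN against DP value, 3.19 with DP at the floor, is therefore given with no test. Against DP, miR-144-3p was not called in ES (1.26, adjusted p = 0.322) or LS (1.66, adjusted p = 0.179). miR-582-5p, which shares bases 2 to 7 with miR-101b-3p, was above background on 0 arrays.

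Other miRNAs reported to target Ezh2, mostly in human cells, were measured for comparison. Of the 16 listed 11 were tested, and let-7e-5p, miR-124-3p, miR-138-5p, miR-214-3p and miR-217-5p were above background on 0 primary arrays. In T-ALL against thymocytes 3 fell and 0 rose by limma (5 and 0 at an unadjusted p under 0.05). Of all tested miRNAs 25.8% were called lower and 31.4% higher. The list median was -0.28 against -0.12 over all tested miRNAs. With slide as a block 1 fell, and scaled over all mouse miRNAs 0 were called. The 3 were miR-25-3p (-0.62, SE 0.15, adjusted p = 0.00598), let-7g-5p (-0.32, SE 0.11, adjusted p = 0.0288) and miR-30d-5p (-0.35, SE 0.13, adjusted p = 0.0353). let-7a-5p, at -0.30, had an adjusted p of 0.0503.

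Against DP, 3 of these 11 fell in ES and 5 in LS, and 0 rose in either (0 at an unadjusted p under 0.05). Over all tested miRNAs 25.3% and 26.2% were called lower, and 21% and 32.3% higher. The medians were -0.34 in ES and -0.35 in LS, against 0.07 and 0.19 over all tested miRNAs. With arrays scaled over all mouse miRNAs the ES median was 0.20, 0 of the 11 were called in ES and 2 fell in LS. In DN against DP 1 fell and 1 rose, miR-144-3p, which its DN level admitted, with a median of -0.31. There 18.8% of all tested miRNAs were called lower and 10.5% higher. Against DN, 0 of the 11 were called by limma in ES and 0 in LS (1 and 0 at an unadjusted p under 0.05). The medians were -0.13 and -0.22, and 6.55% and 33.2% of all tested miRNAs were called.

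miRNAs reported as repressed by Myc formed the second list, with 18 tested of 20 listed, 5 of which also stand in the list above. In T-ALL against thymocytes 7 fell and 0 rose by limma (9 and 0 at an unadjusted p under 0.05), with a median of -0.31. Of all tested miRNAs 25.8% were called lower and 31.4% higher. With slide as a block 2 of the list fell, and scaled over all mouse miRNAs 4 fell and 1 rose. Those with the lowest adjusted p were miR-30c-5p (-0.73, SE 0.12, adjusted p = 0.00117), miR-30e-5p (-0.65, SE 0.13, adjusted p = 0.00181), miR-34a-5p (-1.60, SE 0.53, adjusted p = 0.0266), a target of p53, and let-7g-5p.

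Against DP, 7 of the 18 fell in ES and 10 in LS, and 1 rose in each, miR-29b-3p, at 1.60 (adjusted p = 0.0111) and 1.17 (0.0328). Over all tested miRNAs 25.3% in ES and 26.2% in LS were called lower, and 21% and 32.3% higher. The list medians were -0.58 and -0.67, against 0.07 and 0.19 over all tested miRNAs. miR-26a-5p, at -2.60 and -2.09, lay below both list medians. In ES scaled over all mouse miRNAs, 0 fell and 3 rose, with a median of -0.04, so the ES falls of the list depended on the scaling. The normal stages differed on this list too. In DN against DP 5 fell and miR-29b-3p rose (1.69, limma adjusted p = 0.0113), with a median of -0.45. There 18.8% of all tested miRNAs were called lower. Against DN, 0 fell in ES by limma (1 at an unadjusted p under 0.05) and 1 in LS, with medians of -0.14 and -0.23. Of all tested miRNAs 2.62% and 7.42% were called lower there.

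**Figure D5:**
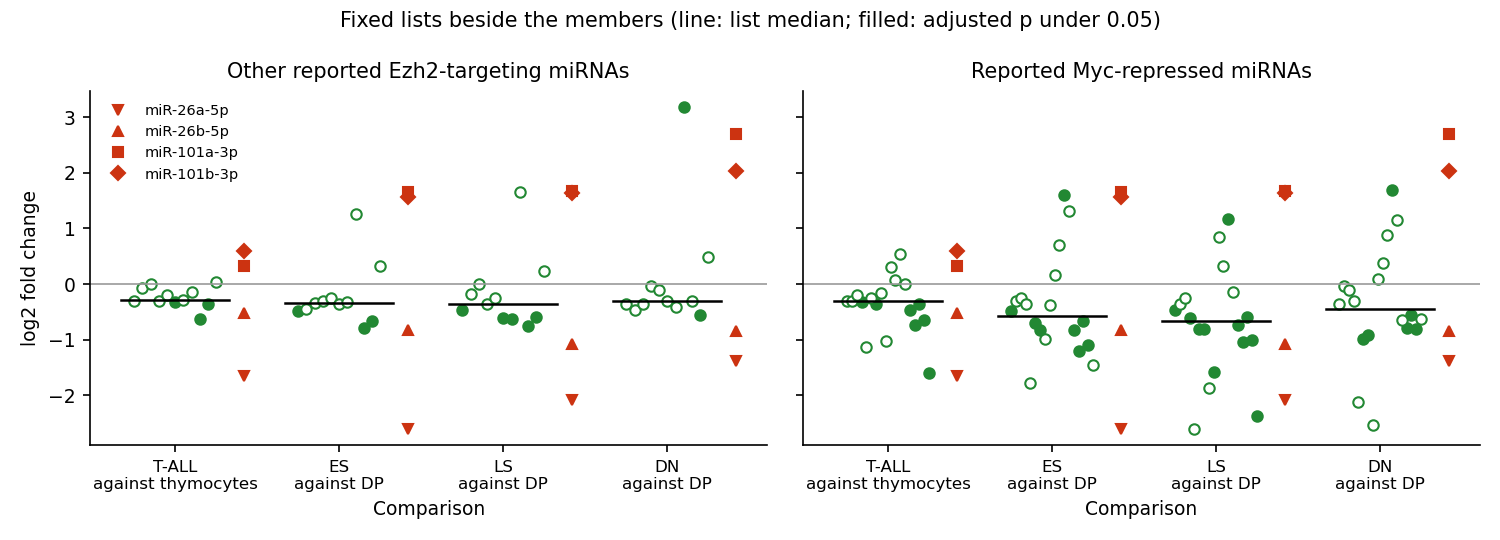
Fold change on the log2 scale (y axis) of each tested miRNA of the 2 lists (green, filled where the adjusted p was under 0.05, with a line at the list median) in 4 comparisons (x axis), beside the 4 members (red). Against DP, miR-26a-5p lies below both list medians and the miR-101 members lie above them.

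By Pearson correlation over the 12 primary arrays, given as a description, the tested miRNAs most like miR-26a-5p were miR-361-5p (0.946), miR-30b-5p (0.928), miR-30e-3p (0.926), miR-181a-5p (0.920) and miR-30d-5p (0.918). Those most like miR-26b-5p were miR-140-3p (0.962), miR-30b-5p (0.954), miR-30d-5p (0.942), miR-194-5p (0.941) and miR-361-5p (0.906). miR-361-5p, miR-30b-5p and miR-30d-5p stand in both groups of 5. Those most like miR-101a-3p were miR-29b-3p (0.856), miR-24-3p (0.845), miR-101b-3p (0.822), miR-29a-3p (0.757) and miR-107-3p (0.743). For miR-101b-3p they were miR-1949 (0.916), miR-20a-3p (0.895), miR-18a-5p (0.870), miR-324-5p (0.846) and miR-101a-3p (0.822). The arrays share 4 group means and a common scaling, which these correlations include.

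The sorted identity was checked on the miR-181 markers of DP thymocytes. Their summed level was 4.75 to 5.21 in DP, 0.988 to 1.15 in DN, 0.387 to 1.48 in ES and 1.03 to 1.72 in LS, so the leukaemias, sorted by the same CD4 and CD8 surface type as DP, did not reach the DP range. Between 115 and 244 mouse miRNAs were above background per primary array, the lowest on ES 1. ES 1 also had the noisiest negative controls, with an SD of 18.7 against at most 7.11 on other arrays. Without ES 1 the miR-26a-5p and miR-101b-3p calls against DP held.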

How the data were processed

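The authors deposited scanner output of Agilent Feature Extraction (version 10.7.3.1, per the file headers), a fluorescence intensity per spot with background subtracted and unscaled. The deposited processed values are on the log2 scale and, by its equal column medians (3.29), quantile normalized by the authors. Tools listed in the submitters' processing notes, with no role, are RMA, MAS5, GCOS and affy. Control and outlier spots (4.03 to 8.60% per array) were removed, the rest averaged first within each probe and then over the probes of a miRNA, and arrays were scaled to the 75th percentile. A miRNA was above background where at least 50% of the spots of 1 probe were marked so. The scanner files hold no mean signal, so normexp used the median signal. limma 3.58.1 under R 4.3.3 fitted the 12 primary arrays with 1 mean per group. Array number limits the precision. The fit was tested on simulated data. Slides, read from array barcodes, held 7 and 6 arrays.

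Members, lists and tests were chosen with earlier results of these data known. The named miRNAs are the members, their other arms, seed relatives, examples of lowest adjusted p from 2 lists, and the 5 most correlated per member. Same-numbered arrays of different groups were not paired: their deviations from group means correlated at -0.338 to 0.497 over 18 pairs, 6 of them over 0.1.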

Additional observations from a re-analysis of the deposited data

How the results depend on the processing

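Other settings were 10 processing choices and the removal of each of 12 arrays. Against DP every member kept its direction in all of them. The replicate number as a block changed no call of a member (for example miR-26a-5p in ES against DP, -2.60, adjusted p = 0.00461) but left 3 miRNAs called in LS against ES and 6 in ES against DN, against 6 and 15. Without the filter on dim miRNAs, more were adjusted over, and the calls ended of miR-101a-3p in DN (2.69, 0.0541), ES (1.65) and LS (1.68) against DP, miR-26a-5p in LS against DP (-2.09, 0.0896) and in T-ALL (-1.65, 0.0551), miR-26b-5p in DN (-0.85) and ES (-0.82) against DP and in T-ALL (-0.52), and miR-101b-3p in T-ALL (0.59). After normexp miR-101a-3p was at 0.50 in ES and 0.31 in LS against DP and -0.19 in LS against ES, miR-101b-3p at 0.18 in T-ALL and -0.06 in LS against ES, the DN against DP values were 0.79 (miR-101a-3p) and 0.97 (miR-101b-3p), and miR-26a-5p was called in DN against DP (-1.32). Scaling over all mouse miRNAs moved the median of all tested miRNAs in ES against DP from 0.07 to 0.59. It gave miR-26b-5p -0.55 in DN and -0.28 in ES against DP and -0.51 in T-ALL, miR-26a-5p -1.08 in DN against DP, -1.21 in LS against DN and -0.23 in LS against ES, miR-101a-3p -1.51 in LS against DN and -0.70 in LS against ES, and miR-101b-3p 0.60 in T-ALL and -0.68 in LS against ES. Quantile normalization gave miR-101b-3p 0.32 in T-ALL and -0.21, and miR-101a-3p -0.30, in LS against ES, and in the authors' deposited table they were at 0.17, -0.18 and -0.09. With the median of probes miR-101a-3p was at 2.46 in ES, 2.49 in LS and 3.5 in DN against DP and 0.73 in T-ALL, and miR-101a-3p minus miR-101b-3p changed by 0.14. With slide as a block miR-26b-5p in T-ALL was at -0.41. The cause was not tested where none is named.

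Within slide 1, with fewer arrays, the calls of miR-26a-5p ended (-2.01 in T-ALL, -3.32 in ES and -2.15 in LS against DP). So did those of miR-26b-5p (-0.52 in T-ALL, and -1.05 in ES, -1.01 in LS and -1.02 in DN against DP). The miR-101a-3p calls in ES (1.15) and LS (1.07) against DP and the miR-101b-3p call in T-ALL (0.59) ended too. On that slide miR-101a-3p was at 2.60 in DN against DP, given with no test. There miR-101a-3p was at -0.19 in T-ALL and -0.08 in LS against ES, miR-101b-3p at -0.38 in LS against ES, and miR-26b-5p at -0.03, 0.00 and 0.04 in ES and LS against DN and LS against ES. The miR-26a-5p minus miR-26b-5p change was -1.49. Within slide 2, miR-26b-5p was at -0.29 in T-ALL, -0.26 in ES against DP and -0.83 in LS against ES, miR-26a-5p at -1.35 in DN against DP, 0.27 and -0.54 in ES and LS against DN and -0.80 in LS against ES, miR-101a-3p at 1.42 in T-ALL and 0.19 in LS against DN, and miR-101b-3p at 0.63 and 0.07. The miR-26a-5p minus miR-26b-5p change was -0.51 and that of miR-101a-3p minus miR-101b-3p 0.78.

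With 1 array left out, values ranged from -0.67 to -0.44 for miR-26b-5p and 0.46 to 0.68 for miR-101b-3p in T-ALL. In ES against DP they ranged from -1.12 to -0.66 for miR-26b-5p and 1.15 to 2.19 for miR-101a-3p, and in LS against DP from 1.07 to 2.22 for miR-101a-3p. In LS against ES they ranged from -0.22 to 1.28 (miR-26a-5p), -0.41 to 0.05 (miR-26b-5p), -0.58 to 0.58 (miR-101a-3p) and -0.19 to 0.22 (miR-101b-3p). In DN against DP they were -1.43 to -1.32 (miR-26a-5p) and -0.93 to -0.72 (miR-26b-5p), in ES against DN -1.99 to -0.48 and -0.27 to 0.19, and in LS against DN -1.62 to -0.46 for miR-101a-3p.

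Counts of called miRNAs moved more than 1.5 times as follows. T-ALL against thymocytes (131) was 30 within slide 1. ES against DP (106) was 29 within slide 1, 165 within slide 2 and 69 to 120 with 1 array out. LS against DP (134) was 56 within slide 1. DN against DP (67) was 43 after normexp, 18 and 123 within slides 1 and 2, and 44 to 101 with 1 array out. LS against DN (76) was 46 after normexp, 21 unfiltered, 3 and 118 within slides, and 32 to 117. ES against DN (15) was 0 after normexp by limma (39 at an unadjusted p under 0.05), 42 scaled over all mouse miRNAs, 25 after quantile normalization, 1 unfiltered, 9 with the median of probes, 9 with slide as a block, 3 and 137 within slides, and 0 to 40 with 1 array out (0 by limma without DN 1, DN 2 or DN 3, with 38, 45 and 36 at an unadjusted p under 0.05). LS against ES (6) was 2 after quantile normalization, 0 unfiltered by limma (42 unadjusted), 3 with the median of probes, 3 with slide as a block, 0 and 114 within slides (56 unadjusted in slide 1), and 1 to 55 with 1 array out. Dim signal limits miR-101a-3p, which was above background on 7 of the 12 primary arrays, and 1 probe of miR-101b-3p, which was so on 5.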
